A study of Mus musculus with 50 samples.

Results

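The mitosis genes described here are 36 genes whose products condense and separate the chromosomes, build the spindle and divide the cell. They were taken by symbol from a written list, and all 36 were found among the 48526 genes of the deposited count table. Their levels were followed library by library in microglia, the resident macrophages of the brain, sorted by FACS from mice carrying loxP-flanked alleles of Hdac1 and Hdac2. These genes encode a pair of closely related histone deacetylases that work as the catalytic subunits of co-repressor complexes. The RNA-seq series held 50 libraries in 14 groups, and every animal, controls included, had the genotype HDAC1/2-loxP/loxP. In the constitutive model the knockout animals also carried CX3CR1-Cre and no animal was treated. Its controls numbered 4 at birth (P0), 4 at 2 weeks (14 days) and 4 at 6 weeks (45 days), and its knockouts 3, 2 and 3 at the same ages. In the inducible model the knockout animals carried CX3CR1-CreERT2, a Cre that enters the nucleus on binding tamoxifen, and the pregnant dams of knockouts and controls alike received 3 mg of tamoxifen, mixed with progesterone, on embryonic day 13. The inducible groups held 4 controls and 3 knockouts at embryonic day 16 (E16), 3 controls and 4 knockouts at P0, and 4 of each at 2 weeks and at 6 weeks. Controls carried no Cre, so loss of the deacetylases and presence of the Cre allele cannot be told apart. Cx3cr1, the gene that drives both Cre alleles, is active in microglia and in other mononuclear phagocytes. Libraries are named below by the number in their label, and values are listed in order of these numbers. Only that number says that the libraries of a group came from separate animals. If they did not, the p-values measure a spread that may be technical.

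Genes of mitosis are transcribed in a wave that starts in G2 and ends as the cell divides, and resting cells keep them low. In resting cells the DREAM complex sits on many of their promoters at a short element called the CHR, and in dividing cells MYBL2 and FOXM1 act at the same promoters. CCAAT boxes, bound by the factor NF-Y, often lie close by. Microglia divide in the embryo and in the first weeks of life and divide little in the adult brain. Values below are CPM, that is reads on a gene per 1000000 reads on all genes of that library. Sorted microglia are a bulk sample here, so a larger share of dividing cells and more RNA of these genes in each cell cannot be told apart.

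The start-proximal sequences of 5 members are shown because their letters hold the elements by which mitosis genes are known, and because Espl1, whose level followed that of the other members least, holds them too. Each is the 120 bases before the transcription start in RefSeq (GRCm38.p6), read 5′ to 3′ on the gene's strand. Capitals mark TTTGAA, a core form of the CHR, and CCAAT, each on either strand, so that TTCAAA and ATTGG are the same elements read from the other strand.
Cdk1 (chr10:69352913-69353032, minus strand): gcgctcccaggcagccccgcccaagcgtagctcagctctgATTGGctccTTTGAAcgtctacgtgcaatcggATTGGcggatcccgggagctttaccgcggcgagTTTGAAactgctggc
Ccnb2 (chr9:70421555-70421674, minus strand): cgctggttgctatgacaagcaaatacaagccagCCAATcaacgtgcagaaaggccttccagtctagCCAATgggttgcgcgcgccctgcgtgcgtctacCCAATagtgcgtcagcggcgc
Cdc20 (chr4:118437344-118437463, minus strand): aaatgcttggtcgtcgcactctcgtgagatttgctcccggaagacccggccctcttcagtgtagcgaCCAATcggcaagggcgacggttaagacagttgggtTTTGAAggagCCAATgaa
Kif11 (chr19:37376262-37376381, plus strand): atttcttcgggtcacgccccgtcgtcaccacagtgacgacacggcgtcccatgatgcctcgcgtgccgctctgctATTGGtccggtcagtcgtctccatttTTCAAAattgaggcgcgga
Espl1 (chr15:102296173-102296292, plus strand): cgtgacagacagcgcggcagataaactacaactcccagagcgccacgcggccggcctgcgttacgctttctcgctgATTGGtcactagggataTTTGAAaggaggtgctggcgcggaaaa
All 5 stretches hold at least 1 CCAAT, and those of Cdk1, Cdc20, Kif11 and Espl1 hold TTTGAA. In Ccnb2 a TTTGAA begins 167 bases before the start and another 4 bases after it, both outside the stretch printed. In the GENCODE annotation of the same assembly Cdk1 spans bases 69335146 to 69352938 of chromosome 10, Ccnb2 bases 70407692 to 70421547 of chromosome 9 and Espl1 bases 102296266 to 102324357 of chromosome 15.

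RefSeq held a window from 250 bases before to 50 bases after the start for 30 of the 36 members. TTTGAA occurred on either strand in a window of 23 of these 30 genes (76.7%), against 20.2% of all 27025 genes with a window. A gene counts once if any of its windows holds the letters, since some genes have several starts. CCAAT occurred in 23 of 30 genes (76.7%), against 41.1% of all genes, and both elements in 1 window in 20 of 30 (66.7%), against 7.97%. The letters GCGGGAA, a form of the E2F element of S-phase genes, were in a window of none of the 30 and of 5.29% of all genes. No motif contains another, although neighbouring matches can share a letter at their edges. Of 52 further mitosis genes outside the 36, 44 had a window, and 27 of these genes (61.4%) held TTTGAA in one. Among the core subunits of the anaphase-promoting complex, whose level does not follow the cell cycle closely, 2 of 14 genes (14.3%) did. A match is a description of the letters in the window and says nothing of binding.

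The libraries held between 11050277 and 29651179 counts on genes. All 36 members were tested in each comparison except where the level was too low, which is stated below. Adjusted p-values are those of edgeR's quasi-likelihood test with Benjamini-Hochberg adjustment over all genes tested, with a threshold of 0.05, and ± after a log2 change is its standard error. Of the targeted genes, Hdac2 stood between 59.8 and 165 CPM in the control libraries and Hdac1 between 11.4 and 19 CPM. Hdac2 lay below the controls of the same age in all inducible knockout libraries except library 1 of E16, which stood at 316 CPM, and in the 3 constitutive knockouts of 6 weeks (44.9, 25.9 and 18.3 CPM). At 2 weeks the 2 libraries labelled constitutive knockout stood at 41.0 and 70.1 CPM of Hdac2, the second within the control range, and at P0 the 3 stood at 191, 124 and 137 CPM against 126 to 164 CPM in the controls. Hdac1 exceeded every control in library 68 of the P0 constitutive knockouts (35.7 CPM) and in the second of those at 6 weeks (92.2 CPM). Counts cover all exons of both genes, and the loxP-flanked exons are not given in the sources used here, so reads from outside the deleted part can remain. The library kit does not mark strand, and 10 members share exonic bases with another gene, among them Top2a, Plk1, Cdc20, Ube2c and Kif4, so that their reads cannot be told apart from those of that neighbour. Homeostatic microglia markers summed to between 18406 and 77902 CPM in the controls, and in the knockouts they were lowest at P0 in the constitutive model (1729.5 CPM). Markers of other cells moved with many groups, and those that moved most are given beside the results they touch.

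In control microglia the mitosis genes were high before and at birth and fell steeply over the next 6 weeks. The summed level of the 36 genes was 2025 ± 197.5 CPM (SD, n = 4) at P0, 649.5 ± 55.86 (SD, n = 4) at 2 weeks and 134.2 ± 2.694 (SD, n = 4) at 6 weeks in the constitutive model. In the inducible model it was 2223 ± 112.9 (SD, n = 4) at E16, 2832 ± 103.1 (SD, n = 3) at P0, 322.1 ± 73.23 (SD, n = 4) at 2 weeks and 105.4 ± 12.14 (SD, n = 4) at 6 weeks. In both models the control libraries of successive ages after birth did not overlap in this sum. Markers of other cells fell with age as well. From P0 to 2 weeks the mean summed neural progenitor markers went from 836 to 17.28 CPM and erythroid markers from 772.1 to 18.96 CPM in the constitutive controls. In the inducible controls border macrophage markers went from 6072 to 100.3 CPM and monocyte markers from 3670 to 36.59 CPM. In each model all 9 neural progenitor, all 8 neuron and all 8 border macrophage genes fell by edgeR's test. Their part in the fall of the mitosis genes was not tested.

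**Figure D1:**
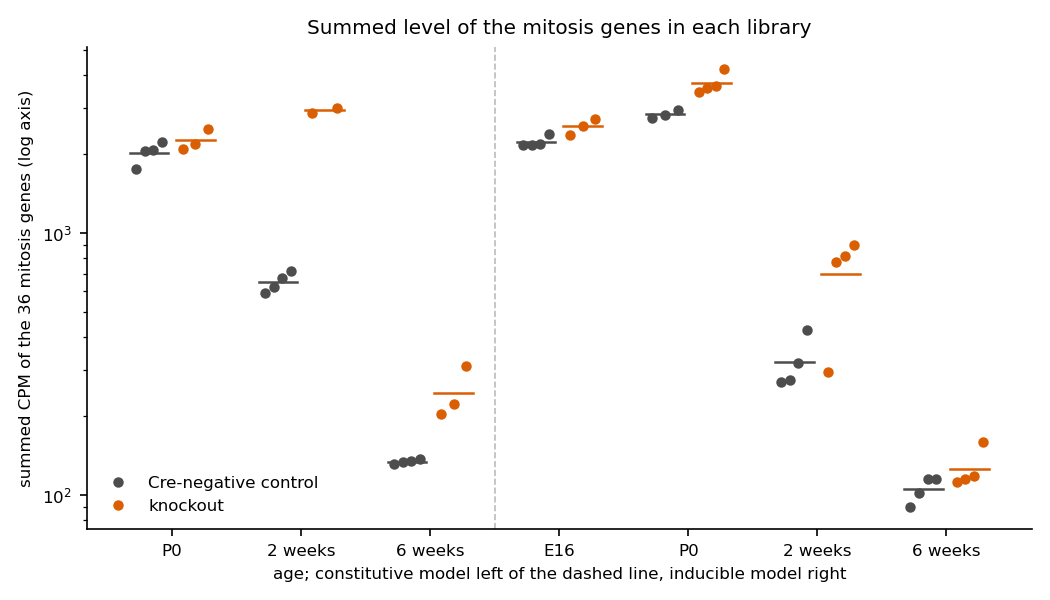
Summed CPM of the 36 mitosis genes (vertical, log axis) in each of the 50 libraries, by model and age (horizontal). Each point is 1 library, controls and knockouts are coloured apart, and the bars are group means; controls fall with age in both models, and the 2 constitutive knockouts of 2 weeks, at 2866 and 3000 CPM, lie above every control library of their own model.

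Between P0 and 2 weeks 35 of 36 members fell in the constitutive controls and 1 rose, where 36.6% of all genes tested fell and 26.7% rose. The members' median log2 change was -1.57, against -0.0731 for all genes. Ube2c, which marks cyclins and securin for destruction, fell most (-2.44 ± 0.16, adjusted p = 1.71e-08), followed by Ccnb2, cyclin B2 (-2.14 ± 0.14, adjusted p = 2.47e-08), and Bub1b, a checkpoint kinase that delays anaphase (-2.03 ± 0.24, adjusted p = 7.08e-06). The smallest falls were those of Incenp, a scaffold of the chromosomal passenger complex (-0.71 ± 0.15, adjusted p = 0.00104), and of Anln, an actin-binding protein of the cleavage furrow (-0.64 ± 0.23, adjusted p = 0.0261). Espl1, which encodes separase, the protease that opens cohesin rings at anaphase, was the 1 member that rose (0.97 ± 0.12, adjusted p = 6.38e-06).

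In the inducible controls 35 of 36 members fell over the same interval, where 32.7% of all genes fell and 21.9% rose, with a members' median of -3.14 against -0.0626. The largest falls were those of Kif4, a chromosome-arm motor (-3.98 ± 0.33, adjusted p = 2.53e-06), Ube2c (-3.70 ± 0.21, adjusted p = 1.24e-07) and Ccnb1, cyclin B1 (-3.64 ± 0.20, adjusted p = 1.08e-07). The smallest were those of Incenp (-1.89 ± 0.15, adjusted p = 1.28e-06) and of the checkpoint protein Mad2l1 (-2.17 ± 0.16, adjusted p = 6.43e-07). Espl1 again departed from the rest and did not pass the test (-0.20 ± 0.15, adjusted p = 0.274). From E16 to P0 none of the 36 members passed the test, where 0.058% of all genes were called, 0.0464% as higher and 0.0116% as lower. In edgeR 24 members were under an unadjusted p of 0.05, the median of the 36 was 0.338 against 0.00232 for all genes, DESeq2 called 4, and 1 was called without E16 control 2.

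Between 2 and 6 weeks 35 of 36 members fell in the constitutive controls, where 8.93% of all genes fell and 8.8% rose, with a median of -3.08 against 0.0123 for all genes. Cdc25c, the phosphatase that switches on CDK1, all but vanished. It had 154 reads over the 4 libraries of 2 weeks and 1 read over the 4 of 6 weeks. The CPM ratio was 196, with a 95% counting interval of 34.7 to 7.79e+03. That interval covers the sampling of reads only and leaves out the spread between libraries. Kif23, a motor of the midzone spindle (-4.37 ± 0.49, adjusted p = 5.9e-05), and Ube2c (-4.19 ± 0.42, adjusted p = 1e-05) followed. Mad2l1 (-0.87 ± 0.18, adjusted p = 0.00415) and Incenp (-1.19 ± 0.20, adjusted p = 0.00106) fell least, and Espl1 did not pass the test (-0.21 ± 0.11, adjusted p = 0.21).

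In the inducible controls 32 of 36 members fell between 2 and 6 weeks, where 8.98% of all genes fell and 8.13% rose, with a median of -2.36 against -0.00337. Cdc25c went from 77 reads to 1, a ratio of 81.4 with a counting interval of 14.2 to 3.26e+03, again without the spread between libraries. Kif11, the motor that pushes the spindle poles apart (-4.77 ± 0.57, adjusted p = 7.46e-05), and the checkpoint kinase Bub1 (-4.42 ± 0.82, adjusted p = 0.0038) followed, and Racgap1, which works with Kif23 in cytokinesis (-1.06 ± 0.25, adjusted p = 0.00788), and Incenp (-1.0 ± 0.17, adjusted p = 0.000737) fell least among those called. The 4 members that missed the threshold were Mad2l1 (-0.41 ± 0.20, adjusted p = 0.182), Espl1 (-0.25 ± 0.14, adjusted p = 0.232), Kif23 (-2.64 ± 0.87, adjusted p = 0.0668) and Kif2c, a microtubule depolymerase (-0.91 ± 0.41, adjusted p = 0.15).

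**Figure D2:**
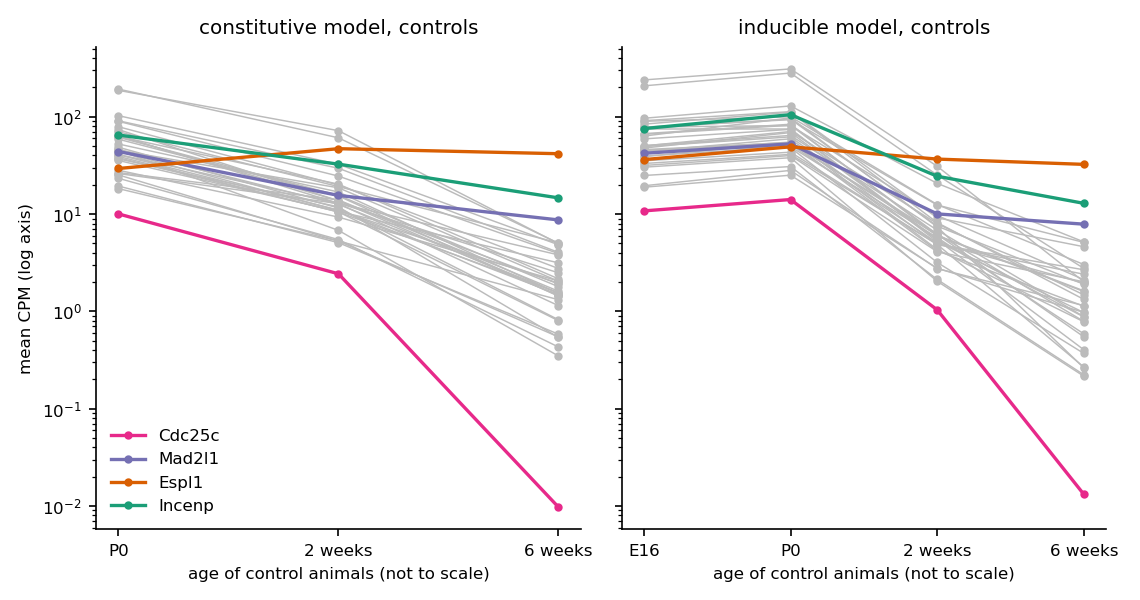
Mean CPM of each of the 36 members (vertical, log axis) against age (horizontal, not to scale) in the control groups of each model. Grey lines are the members not singled out; Espl1, between 27.1 and 52.1 CPM in every control library, does not fall as the others do, Incenp and Mad2l1 fall less than most, and Cdc25c falls to a single read at 6 weeks.

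Espl1 was set apart from the other 35 members in level and course. In the constitutive controls its CPM were 29.7, 27.4, 27.1 and 33.5 at P0, 47.7, 44.04, 45.3 and 50.9 at 2 weeks and 41.1, 45.9, 36.2 and 43.7 at 6 weeks. In the inducible controls they were 32.8, 40.9, 33.3 and 38.2 at E16, 48.1, 47.2 and 52.1 at P0, 39.9, 31.1, 31.9 and 44.1 at 2 weeks and 38.3, 30.02, 30.7 and 30.6 at 6 weeks. No fall with age of the size seen in the other members is visible in these values. Across the 50 libraries the log2 level of Espl1 had a Pearson correlation of 0.272 with the log2 summed level of the other members, whereas for each of the other 35 the value lay between 0.942 (Mad2l1) and 0.996 (Ccna2, cyclin A2). These correlations are descriptions: the libraries share their groups and their depth. Espl1 made up 1.332% to 1.544% of the summed level in the constitutive controls of P0 and 27.07% to 33.44% in those of 6 weeks.

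Levels of different members can be set side by side only per length, as CPM per kilobase of the gene's counted exons. In the controls of E16 Ccnb2 was the highest member (48.6 CPM per kilobase), Cdk1, the kinase that both B-type cyclins activate, followed (28.02), and Ttk, the kinase that starts the spindle checkpoint, was the lowest (3.838). By 6 weeks in the constitutive controls Espl1 led (6.293 CPM per kilobase), followed by Incenp (4.561), and Cdc25c was the lowest (0.005013). In the constitutive knockouts of 2 weeks the order began again with Ccnb2 (74.19 CPM per kilobase), Cdc20, the activator of the anaphase-promoting complex (32.45), and Ccna2 (32.0), with Ttk last (5.608).

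The controls of the models themselves differed. They differ in tamoxifen exposure and in whatever else set the cohorts apart, which cannot be told apart. At P0 16 of 36 members were lower in the constitutive than in the inducible controls, where 4.18% of all genes tested were called, 2.59% as lower and 1.59% as higher, with a median of -0.596 against 0.001. Kif11 (-1.02 ± 0.17, adjusted p = 0.0288), Espl1 (-0.87 ± 0.14, adjusted p = 0.0281) and Mki67, the antigen used to stain cycling cells (-0.86 ± 0.12, adjusted p = 0.0236), differed most. Birc5, the survivin subunit of the passenger complex (-0.51 ± 0.12, adjusted p = 0.0487), and Cenpe, a kinetochore motor (-0.50 ± 0.11, adjusted p = 0.0408), differed least among those called. Border macrophage markers were lower in the constitutive controls too (mean sum 1719 against 6072 CPM, with 7 of 8 genes called), as were 3 of 7 monocyte and 3 of 7 lymphocyte genes tested, while 3 of 8 neuron genes were higher. Their part was not tested. The count of 16 fell to 6 without constitutive control 70 and to 0 without constitutive control 71 or 74 or inducible control 54 or 55. At 2 weeks the direction was the opposite, and 20 of 36 members were higher in the constitutive controls, where 0.961% of all genes were, with a median of 1.17 against -0.00535. Ndc80, the kinetochore subunit that grips microtubules (1.61 ± 0.20, adjusted p = 0.000333), Nusap1, a spindle protein that binds microtubules (1.52 ± 0.29, adjusted p = 0.0136), and Kif23 (1.42 ± 0.20, adjusted p = 0.000947) led. Aurka, the kinase of the spindle poles (0.91 ± 0.21, adjusted p = 0.0338), and Cenpa, the histone that marks centromeres (0.60 ± 0.15, adjusted p = 0.0419), differed least. Without inducible control 1, 13 were called. At 6 weeks none of 30 members tested differed by edgeR's test, where 0.121% of all genes were higher and 0.0994% lower, although 10 were under an unadjusted p of 0.05.

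In the constitutive knockouts of 2 weeks nearly all of the mitosis genes were raised. Their mean CPM stood at or above those of the newborn controls of the same model. Of 36 members 35 rose and none fell, where 42.1% of all genes tested were called, 24.4% as higher and 17.8% as lower, and the members' median log2 change was 2.41 against 0.00196 for all genes. The summed level was 2933 ± 94.64 CPM (SD, n = 2) against 649.5 ± 55.86 (SD, n = 4) in the controls. In CPM both knockout libraries lay above all 4 controls for 35 of 36 members, as they did for 31.5% of all genes tested. The group mean exceeded that of the P0 controls of the model in 36 of 36 members. The ratio had a median of 1.45 and ran from 1 to 2.9. Against the P0 controls of the inducible model, at 2737 to 2942 CPM in sum, the knockouts at 2866 and 3000 CPM overlapped. The count was 35 as well with any 1 of the 6 libraries left out, although without a knockout that arm is 1 library, assumed to vary as the controls do.

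The gene with the largest rise was Ccnb2. Ccnb2 stood at 104 and 125 CPM against 11.7, 16.1, 11.8 and 15.2 CPM in the controls, a log2 change of 3.07 ± 0.18 or 8.41-fold (adjusted p = 3.6e-06). Its partner kinase Cdk1 rose less: 109 and 96.9 CPM in the knockouts against 29.6, 30.5, 31 and 38.8 CPM in the controls (1.66 ± 0.14, adjusted p = 2.34e-05). Ccnb1, the other B-type cyclin, went from 4.32, 4.55, 6.84 and 6.18 CPM in the controls to 32.9 and 27.8 CPM (2.46 ± 0.23, adjusted p = 4.57e-05). In all 3 genes the groups were separated by a wide gap, and all 4 members of the cyclin and CDK1 group passed the test. The proliferation antigen Mki67 stood at 348 and 256 CPM against 68.3, 77.4, 68.5 and 73.7 CPM (2.05 ± 0.12, adjusted p = 3.15e-06), and Top2a, the topoisomerase that untangles sister chromosomes, at 251 and 259.9 CPM against 56.4, 72.6, 59.4 and 54.6 CPM (2.07 ± 0.14, adjusted p = 7.96e-06). Library 80 was the higher for Mki67 and library 89 for Ccnb2, so neither knockout was the higher throughout.

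**Figure D3:**
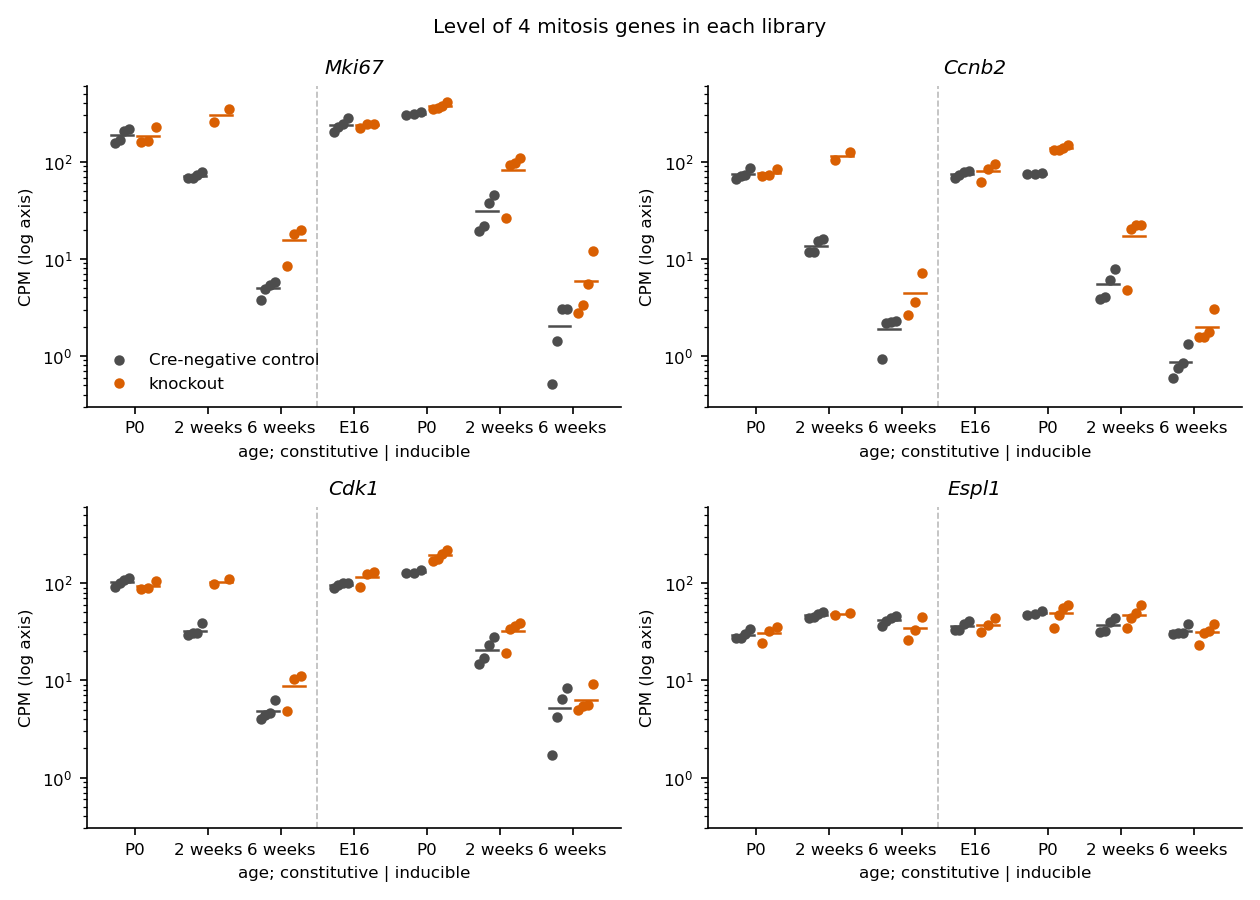
CPM of 4 members in each of the 50 libraries (vertical axes, log), by model, age and genotype (horizontal). Each point is 1 library and bars are group means; the 2 constitutive knockouts of 2 weeks lie above their 4 controls in every panel but that of Espl1, where they stand at 46.8 and 49.3 CPM among controls of 44.0 to 50.9 CPM.

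Among the mitotic kinases, Plk1, which drives entry into mitosis and spindle formation, stood at 29.96 and 40.2 CPM against 3.203, 6.91, 3.95 and 7.07 CPM (2.75 ± 0.33, adjusted p = 0.000192). Aurkb, the kinase of the passenger complex that corrects faulty attachments, stood at 61.6 and 74.7 CPM against 10.8, 11.6, 9.35 and 12.3 CPM (2.64 ± 0.18, adjusted p = 7.08e-06). Its partner Birc5 stood at 75.4 and 104 CPM against 12.8, 16.5, 11.5 and 14.1 CPM (2.72 ± 0.20, adjusted p = 1.15e-05). The 3 kinases rose together with Birc5 and Incenp, which with Aurkb are the passenger complex subunits among the members. Incenp rose least of all members called: 75.1 and 85.1 CPM in the knockouts against 24.9, 32.4, 31.9 and 41.3 CPM in the controls (1.31 ± 0.19, adjusted p = 0.000607). In the spindle checkpoint all 4 members rose, and Bub1b stood at 78.3 and 92.5 CPM against 8.03, 16.3, 10.98 and 16.3 CPM (2.74 ± 0.27, adjusted p = 9.12e-05). On the side that ends the checkpoint, Cdc20 stood at 49.5 and 71.7 CPM against 8.59, 11.6, 10.6 and 11.1 CPM (2.55 ± 0.22, adjusted p = 2.56e-05). Ube2c stood at 43.9 and 65.4 CPM against 5.34, 6.79, 7.85 and 7.23 CPM (3.03 ± 0.24, adjusted p = 1.7e-05). Checkpoint genes and the genes that overcome it were both raised, with no overlap between groups. Separase was the exception, with Espl1 at 46.8 and 49.3 CPM against 47.7, 44.04, 45.3 and 50.9 CPM (0.036 ± 0.14, adjusted p = 0.859), the groups overlapping.

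All 6 kinetochore and centromere members rose, by log2 changes between 1.75 and 2.39, and Cenpa stood at 87.4 and 101 CPM against 19.6, 17.8, 16.3 and 22.9 CPM (2.31 ± 0.17, adjusted p = 1.04e-05). All 5 spindle motors rose as well. Kif11 stood at 78.4 and 97.3 CPM against 14.1, 15.9, 17.7 and 19.7 CPM (2.39 ± 0.18, adjusted p = 1.52e-05), and Kif4 had the third largest change of all members (2.78 ± 0.25, adjusted p = 3.48e-05). The 4 spindle assembly genes, Nusap1, Tpx2, Prc1 and Hmmr, rose by 1.95 to 2.53. Both cytokinesis genes rose, and Anln stood at 91.5 and 63.3 CPM against 14.6, 12.2, 12.3 and 16.8 CPM (2.45 ± 0.17, adjusted p = 9.16e-06). No group of members by role stood apart from the others in direction, and the rise extended from the cyclins to the cleavage furrow.

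**Figure D4:**
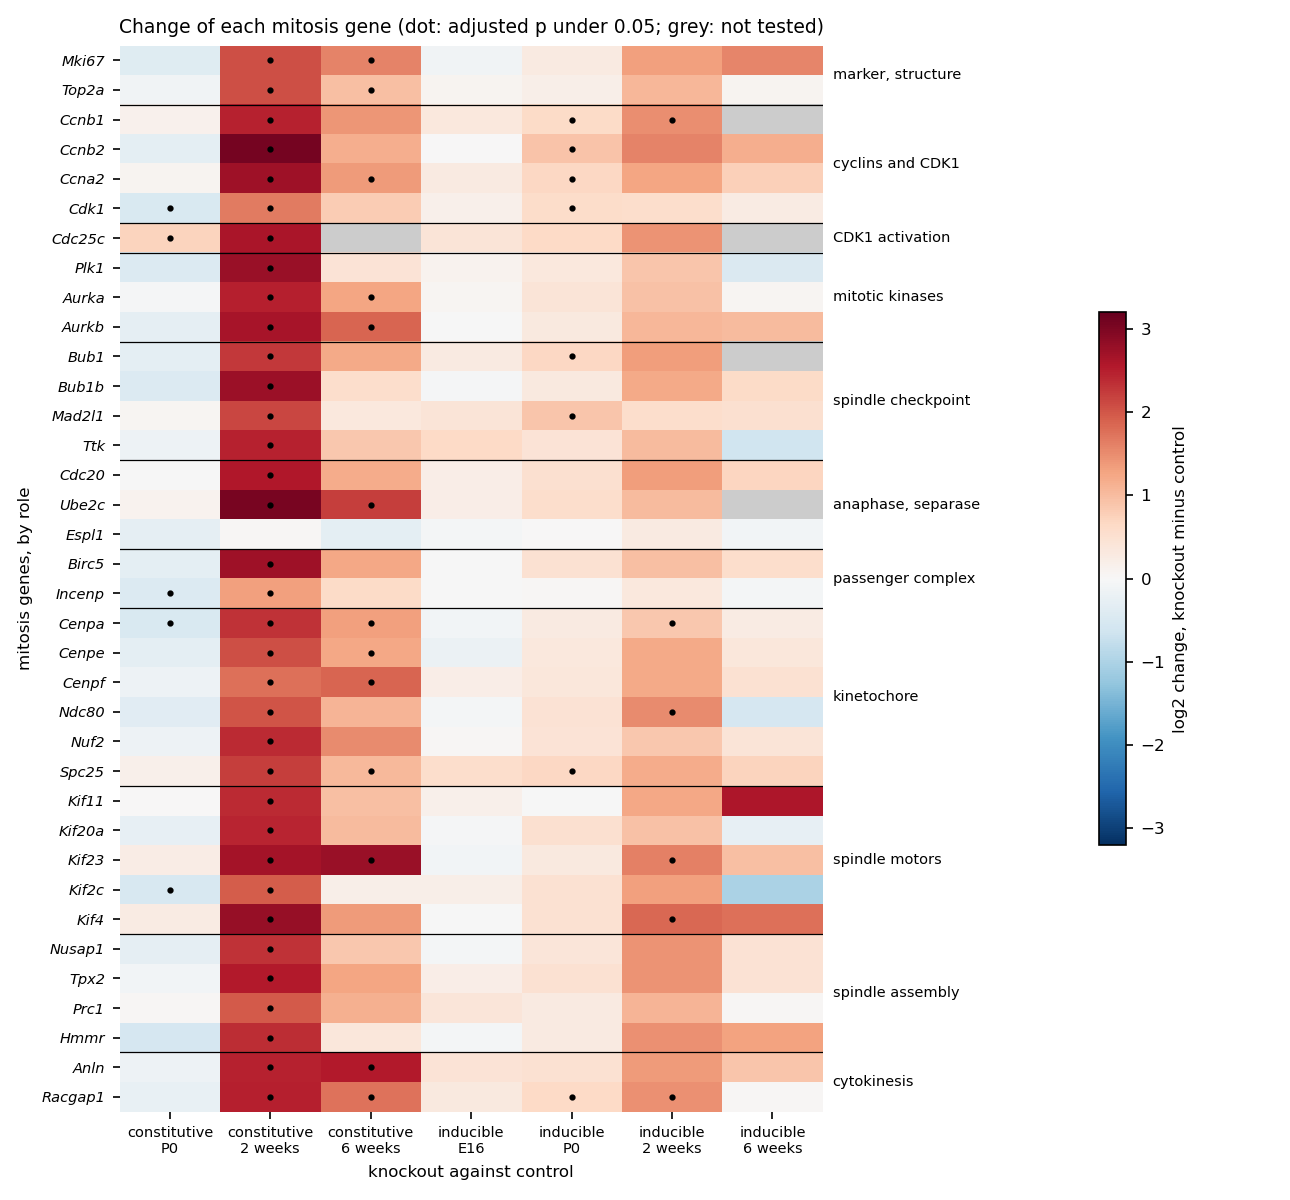
Log2 change of knockout against control (colour) for the 36 members, ordered by role (vertical), in the 7 comparisons of the 2 models by age (horizontal). A dot marks an adjusted p under 0.05 and grey a member too low to be tested; the column of the constitutive model at 2 weeks is raised for every gene but Espl1, and the columns of E16 and of the inducible model at 6 weeks have no dot.

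Markers of other cells were raised in the same 2 libraries. Summed markers of mature neutrophils stood at 18022 CPM in library 80 and 51289 CPM in library 89, against 463 to 1157 CPM in the controls, and markers of neutrophil precursors, which divide in the bone marrow, at 186 and 539 CPM against 1.02 to 9.26 CPM. Monocyte markers stood at 1575 and 3984 CPM against 18.0 to 77.1 CPM, border macrophage markers at 2705 and 2058 CPM against 110 to 172 CPM, and neural progenitor markers at 294 and 581 CPM against 10.9 to 24.8 CPM. Of the 9 neural progenitor genes only 4 were tested, and 1 of these was called higher by edgeR's test, against 24.4% of all genes. The sum of that list therefore does not stand for its genes as a whole. Homeostatic microglia markers were lower, at 26058 and 16261 CPM against 68135 to 77902 CPM. Their part in the raised mitosis genes was not tested. The summed mitosis genes stood at 2866 CPM in library 80 and 3000 CPM in library 89.

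**Figure D5:**
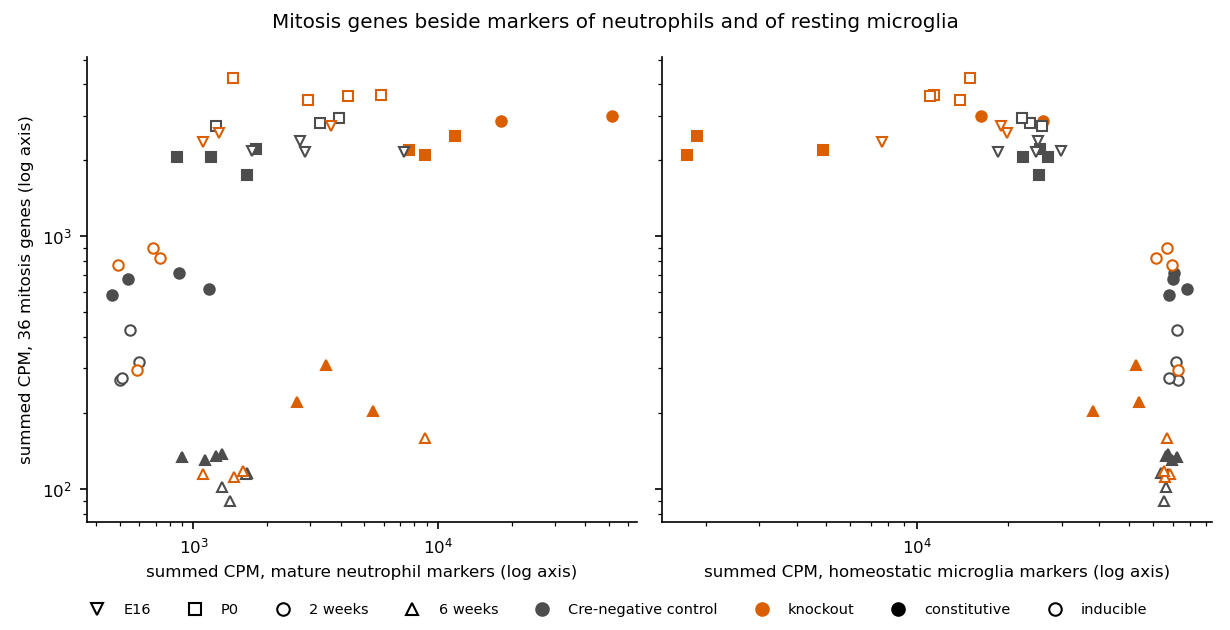
Summed CPM of the 36 mitosis genes (vertical, log axis) in each of the 50 libraries against summed CPM of mature neutrophil markers (left) and of homeostatic microglia markers (right), on log axes. Shape gives the age, colour the genotype and fill the model. The 2 constitutive knockouts of 2 weeks have the most neutrophil marker signal, and the inducible libraries of P0 have 5826 CPM of these markers or less.

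At birth the constitutive knockouts showed no such rise. Of 36 members 1 rose and 4 fell, where 41.6% of all genes tested were called, 21.4% as higher and 20.2% as lower, and the members' median was -0.208 against 0.0434. Cdc25c was the member that rose: 21.2, 18.9 and 22.9 CPM in the knockouts against 9.16, 12.4, 8.36 and 10.3 CPM in the controls (0.72 ± 0.20, adjusted p = 0.0149), without overlap. The 4 that fell were Cdk1 (-0.50 ± 0.14, adjusted p = 0.0142), Kif2c (-0.51 ± 0.16, adjusted p = 0.024), Cenpa (-0.49 ± 0.17, adjusted p = 0.0363) and Incenp (-0.43 ± 0.15, adjusted p = 0.0361). The CPM of these genes overlapped between the groups: Cdk1 at 86.02, 88.4 and 105 CPM against 112, 91.8, 99.7 and 107 CPM, Cenpa at 69.8, 60.2 and 62.7 CPM against 74.2, 56.5, 63.9 and 86.1 CPM and Incenp at 64.5, 68.6 and 53.2 CPM against 72.9, 63.6, 67.4 and 55.9 CPM. The direction of the members as a whole depended on the scale. With library totals in place of edgeR's TMM scaling, the median of all genes moved to 0.402, the members' median to 0.149, and 7 members rose and none fell. Over all genes tested the split was 3942 higher and 3726 lower with TMM and 6427 higher and 2037 lower with totals. The count of 5 was 2 without knockout 68, 1 (a rise) without knockout 73, 2 without control 69, 9 without control 70 and 3 without control 71, and 0 when all groups shared a fit. In CPM every knockout lay above every control for 8 members, as for 39.1% of all genes tested.

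The remaining members printed by library overlapped between knockouts and controls at P0. Mki67 stood at 161, 159.7 and 226 CPM against 168, 207, 157 and 216 CPM in the controls, and Top2a at 225, 191 and 261 CPM against 202, 219, 150 and 199.7 CPM. Ccnb1 stood at 33.9, 27.1 and 37.5 CPM against 22.1, 19.7, 21.2 and 30.3 CPM in the controls, and Ccnb2 at 84.9, 70.96 and 72.1 CPM against 73.1, 65.8, 71.2 and 85.3 CPM. For the kinases, Plk1 at 18.3, 17.4 and 15.8 CPM against 18.4, 14.8, 19.8 and 20.1 CPM and Aurkb at 45.95, 36.7 and 44.2 CPM against 41.1, 38.1, 34.6 and 48.98 CPM. Here no group of libraries stood clear of the other. Bub1b stood at 67.1, 54.6 and 59.3 CPM against 85.1, 53.3, 55.7 and 62.2 CPM in the controls, and Cdc20 at 57.7, 54.7 and 36.4 CPM against 38.7, 31.8, 41.7 and 44.4 CPM. Birc5 stood at 64.8, 61.9 and 67.6 CPM against 61.2, 58.5, 61.95 and 70.6 CPM in the controls, Kif11 at 61.1, 73.1 and 69.5 CPM against 54.5, 52.8, 37.2 and 65.5 CPM and Anln at 32.01, 19.2 and 40.2 CPM against 31.2, 21.99, 16.2 and 37.5 CPM. Summed over the 36 genes the knockouts stood at 2192, 2089.7 and 2491 CPM against 2065, 2058, 1753 and 2225 CPM, the ranges overlapping. In these knockouts neural progenitor markers stood at 2454 to 2783 CPM against 661 to 1244 CPM, erythroid markers at 2079 to 2771 CPM against 583 to 1039 CPM, and homeostatic markers at 1729.5 to 4875 CPM against 22335 to 27123 CPM. Mature neutrophil markers stood at 7618 to 11693 CPM against 856 to 1806 CPM, monocyte markers at 1861 to 3122 CPM against 898 to 1108 CPM, and neutrophil precursor markers at 49.2 to 193 CPM against 6.80 to 12.1 CPM, all 7 of the latter genes being called higher. Their part was not tested.

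At 6 weeks a smaller number of members was raised in the constitutive knockouts, from a low base. Of 35 members tested 13 rose and none fell, where 6.76% of all genes rose and 5.24% fell, and the median was 1.19 against -0.00734. Cdc25c was too low to be tested. The summed level was 310, 204 and 222 CPM in the 3 knockouts, in order of their numbers, against 130.8 to 137 CPM in the 4 controls, and each member's mean stayed below that of the 2-week controls. Kif23 rose most (2.75 ± 0.71, adjusted p = 0.0287), at 6.66, 3.57 and 1.69 CPM against 0.188, 0.183, 0.35 and 1.44 CPM, a difference that rests on few reads in the controls. Anln followed (2.53 ± 0.38, adjusted p = 0.00104), at 11.3, 9.37 and 8.65 CPM against 1.56, 1.28, 2.802 and 0.799 CPM, and Ube2c was the third (2.22 ± 0.63, adjusted p = 0.0416). Both members of the cytokinesis pair rose, Racgap1 standing at 18.3, 9.82 and 12.6 CPM against 3.69, 4.34, 4.16 and 3.52 CPM (1.74 ± 0.25, adjusted p = 0.000823). Cenpf, a large kinetochore protein of G2 cells, stood at 15.2, 15.5 and 15.03 CPM against 3.81, 3.61, 3.46 and 5.27 CPM (1.86 ± 0.22, adjusted p = 0.000177). Cenpa stood at 14.2, 12.4 and 12.2 CPM against 4.001, 4.89, 6.46 and 4.87 CPM (1.30 ± 0.22, adjusted p = 0.00239). These groups did not overlap, and 4 of 6 kinetochore members passed the test.

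Mki67 stood at 19.7, 18.1 and 8.52 CPM against 4.94, 5.38, 5.84 and 3.75 CPM (1.58 ± 0.29, adjusted p = 0.00385), and Aurkb at 7.07, 6.19 and 3.58 CPM against 1.63, 1.96, 1.05 and 1.32 CPM (1.87 ± 0.35, adjusted p = 0.00447). The smallest calls were those of Top2a, at 13.97, 8.15 and 8.33 CPM against 3.44, 5.38, 6.42 and 4.83 CPM (0.96 ± 0.28, adjusted p = 0.0476), and of Spc25, an NDC80-complex subunit (1.04 ± 0.28, adjusted p = 0.0329). Ccna2, Aurka and Cenpe were the other members that passed. No spindle checkpoint and no spindle assembly gene passed the test at this age. Cdk1 stood at 10.4, 4.798 and 11.1 CPM against 4.44, 4.65, 6.23 and 4.03 CPM in the controls, and Ccnb1 at 1.97, 0.335 and 1.496 CPM against 0.0625, 0.245, 0.895 and 0.519 CPM. Plk1 stood at 2.96, 0.949 and 1.69 CPM against 1.19, 1.04, 1.21 and 1.84 CPM in the controls, and Bub1b at 9.78, 2.68 and 4.94 CPM against 4.19, 3.67, 3.97 and 3.395 CPM. Cdc20 stood at 5.75, 2.06 and 3.12 CPM against 1.75, 2.81, 0.934 and 0.719 CPM in the controls, and Kif11 at 3.62, 2.68 and 3.06 CPM against 2.63, 0.122, 2.96 and 0.399 CPM. In these 6 genes at least 1 knockout library did not exceed the highest control, and none passed the test. Ccnb2 stood at 7.15, 3.57 and 2.67 CPM against 0.938, 2.26, 2.18 and 2.28 CPM in the controls, and Birc5 at 4.601, 2.62 and 3.32 CPM against 0.563, 2.51, 1.17 and 1.56 CPM. For Ccnb2 and Birc5 the libraries did not overlap although neither gene passed. Every knockout lay above every control in CPM for 18 of 35 members, as for 13.8% of all genes tested. The count of 13 fell to 6 without the knockout with the highest sum and to 8 without the first or the second control. Mature neutrophil markers stood at 2662 to 5410 CPM against 901 to 1312 CPM and border macrophage markers at 1022 to 1618 CPM against 30.6 to 52.3 CPM. Neutrophil precursor markers stood at 5.01 to 25.4 CPM against 0.584 to 2.81 CPM, and monocyte markers at 154.5 to 752.7 CPM against 51.2 to 129.7 CPM. Of the 7 precursor genes only 2 were tested, and 1 was called higher. Of the 7 monocyte genes 2 were called higher, where 6.76% of all genes rose. Homeostatic markers were lower, at 37980 to 53920 CPM against 66300 to 72430 CPM, with 8 of 15 genes called lower, against 5.24% of all genes. Their part was not tested.

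In the inducible model at E16, 3 days after tamoxifen, no member passed the test. With all libraries in the fit none of 36 was called, where 0% of all genes were called in either direction. The median was 0.0896 against 0.116, 5 were under an unadjusted p of 0.05 in edgeR, and 2 were called without knockout 1, the library whose Hdac2 level went against its label. That library also stood apart in markers of other cells. Its erythroid markers stood at 12170 CPM against 711 and 969 CPM in the other 2 knockouts, neuron markers at 3170 against 598.5 and 397.6 CPM, and neural progenitor markers at 1751 against 386 and 326 CPM. Astrocyte markers stood at 559 against 119.95 and 105 CPM and homeostatic markers at 7640 against 19822 and 18850 CPM, and their part was not tested. The sum was 2371, 2565 and 2728 CPM in the knockouts and 2159, 2163, 2392 and 2177.5 CPM in the controls. Mki67 stood at 220.3, 245 and 241 CPM against 229, 204, 279 and 244 CPM in the controls, and Top2a at 242, 228 and 239 CPM against 183, 189, 239 and 219.8 CPM. Cdk1 stood at 91.6, 129 and 124 CPM against 89.03, 95.9, 101 and 99.95 CPM in the controls, and Ccnb2 at 61.1, 84.9 and 95.05 CPM against 81.02, 72.2, 78.6 and 67.8 CPM. Plk1 stood at 19.2, 24.6 and 23.3 CPM against 18, 25.02, 20.7 and 14.4 CPM in the controls, and Aurkb at 39.5, 59.6 and 60.4 CPM against 47.5, 53.1, 53.8 and 47.7 CPM. All of these overlapped. Bub1b stood at 63.98, 82.8 and 92.8 CPM against 72.8, 95.8, 76.3 and 62.5 CPM in the controls, and Birc5 at 60.4, 69.3 and 79.7 CPM against 67.3, 68.6, 65.7 and 62.7 CPM. Cenpa stood at 62.1, 78.8 and 93.3 CPM against 77.8, 86.03, 77 and 72.4 CPM in the controls, which overlapped as well. Ccnb1, Cdc20, Kif11 and Anln were higher in CPM in all 3 knockouts than in the 4 controls, without passing the test. Ccnb1 stood at 35.02, 33.5 and 32.5 CPM against 19.99, 24.9, 26.6 and 28.1 CPM in the controls, and Cdc20 at 49.9, 56.3 and 57.6 CPM against 43.6, 44.5, 48.7 and 40.6 CPM. Kif11 stood at 72.1, 72.2 and 81.9 CPM against 68.7, 55.03, 63.9 and 65.5 CPM in the controls, and Anln at 55.7, 59.5 and 54.9 CPM against 43.1, 28.8, 41.96 and 41.8 CPM. In all, 11 members were separated in this way, as were 13.3% of all genes tested.

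At P0 the inducible knockouts showed a small rise on a high base. Of 36 members 8 rose and none fell, where 6.81% of all genes tested rose and 3.56% fell, with a median of 0.454 against -0.00791. All 4 genes of the cyclin and CDK1 group were among the 8. Ccnb2 stood at 133, 133, 137 and 150 CPM against 74.4, 76.2 and 73.99 CPM in the controls (0.90 ± 0.13, adjusted p = 0.00256). Ccnb1 stood at 42.8, 39.1, 50.02 and 55.02 CPM against 30.7, 31.2 and 30.5 CPM in the controls (0.62 ± 0.18, adjusted p = 0.0467). Cdk1 stood at 171, 178, 201 and 221 CPM against 126, 135 and 126 CPM in the controls (0.59 ± 0.15, adjusted p = 0.0293). In these 3 genes every knockout was above every control. Ccna2 (0.65 ± 0.14, adjusted p = 0.0152) completed the group, and the others called were Mad2l1 at 79.3, 91.4, 114 and 99.3 CPM against 53.99, 57.3 and 46.8 CPM (0.88 ± 0.17, adjusted p = 0.00998), Bub1 (0.67 ± 0.14, adjusted p = 0.0128), Spc25 (0.65 ± 0.15, adjusted p = 0.0194) and Racgap1 (0.63 ± 0.17, adjusted p = 0.0385). The sum was 3448, 3625, 3578 and 4225 CPM against 2816, 2942 and 2737 CPM, without overlap.

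None of the other members printed by library passed the test at P0. Mki67 stood at 378, 350, 358 and 410.2 CPM against 299, 311 and 321 CPM in the controls, and Cdc20 at 69.8, 61.8, 81.7 and 94.9 CPM against 57.7, 60.6 and 46.4 CPM. Birc5 stood at 97.04, 102, 133 and 123 CPM against 87.4, 75.9 and 82.3 CPM in the controls, and Anln at 69.8, 77.2, 79.3 and 79.4 CPM against 61.7, 65 and 36.8 CPM. These 4 were separated between the groups, as were 24 of 36 members in all and 15.7% of all genes tested. Top2a stood at 258, 324, 313 and 362 CPM against 282, 306 and 256 CPM in the controls, and Plk1 at 36.2, 35.1, 25.7 and 45.4 CPM against 33.4, 22.2 and 28.7 CPM. Aurkb stood at 79.5, 67.7, 71.3 and 99.4 CPM against 61.4, 76 and 55.6 CPM in the controls, and Bub1b at 124, 106, 93.6 and 145 CPM against 94.5, 110 and 79.6 CPM. Cenpa stood at 92.6, 101, 124 and 131 CPM against 84.7, 109.6 and 85.7 CPM in the controls, and Kif11 at 82.6, 100.3, 87.98 and 108 CPM against 88.6, 97.7 and 106 CPM. These 6 overlapped. The count of 8 was 2 without control 55 or 56, 3 without control 54, 5 without knockout 49 or 57, and 1 when all groups shared a fit, and 23 members were under an unadjusted p of 0.05 in edgeR. Mature neutrophil markers overlapped between knockouts (1449 to 5826 CPM) and controls (1236 to 3955 CPM), and homeostatic markers were lower in the knockouts (10988 to 14885 against 22165 to 25872 CPM). Mean sums were higher for neutrophil precursor (75.89 against 26.86 CPM), monocyte (5395 against 3670 CPM) and border macrophage markers (7910 against 6072 CPM). Their ranges overlapped, and 0 of their genes were called higher, where 6.81% of all genes rose. Mean sums of lymphocyte, neuron, astrocyte, oligodendrocyte lineage and erythroid markers were lower. Their part was not tested.

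At 2 weeks 3 of the 4 inducible knockouts were raised and the fourth, library 6, was not. The sum was 771 CPM in library 10, 902 in library 13 and 820 in library 16, but 295 in library 6, against 269, 275, 318 and 427 CPM in the controls. Of 36 members 6 rose and none fell, where 2.25% of all genes tested were called, 1.11% as higher and 1.13% as lower, with a median of 1.2 against -0.00712. Below, the first knockout value is that of library 6. Kif4 stood at 3.05, 8.99, 10.1 and 8.804 CPM against 1.86, 0.984, 3.55 and 1.76 CPM in the controls (1.83 ± 0.39, adjusted p = 0.0259). Kif23 stood at 4.76, 17.1, 17.2 and 16.96 CPM against 4.26, 3.999, 5.03 and 4.01 CPM in the controls (1.62 ± 0.31, adjusted p = 0.0184). Ndc80 stood at 4.69, 15.01, 14.3 and 15.9 CPM against 3.25, 3.63, 5.47 and 4.07 CPM in the controls (1.52 ± 0.31, adjusted p = 0.0199). In each of these 3, library 6 lay within the control range and the other 3 far above it. Ccnb1 stood at 1.86, 6.52, 8.08 and 8.53 CPM against 1.97, 1.97, 1.82 and 2.75 CPM in the controls (1.48 ± 0.36, adjusted p = 0.0415). Racgap1 stood at 12.95, 30.1, 31.8 and 30.9 CPM against 7.46, 8.37, 8.92 and 11.8 CPM in the controls (1.46 ± 0.24, adjusted p = 0.00824). Cenpa stood at 14.1, 26.02, 27.7 and 27.2 CPM against 11.9, 11.9, 12.2 and 13.5 CPM in the controls (0.87 ± 0.17, adjusted p = 0.0152). Racgap1 and Cenpa were the 2 members in which all 4 knockouts lay above all controls, as did 5.87% of all genes tested.

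The same split between library 6 and the other knockouts ran through the members that missed the threshold. Mki67 stood at 26.4, 96.2, 109 and 92.4 CPM against 19.3, 21.8, 37.9 and 44.9 CPM in the controls (1.31 ± 0.50, adjusted p = 0.276). Top2a stood at 21.6, 61.9, 82.2 and 58.3 CPM against 18, 18.5, 26.5 and 37.7 CPM in the controls, and Cdk1 at 18.98, 33.6, 38.7 and 36.2 CPM against 14.9, 23.01, 16.9 and 27.99 CPM. Ccnb2 stood at 4.76, 20.1, 22.3 and 22.04 CPM against 3.83, 6.09, 4.09 and 7.81 CPM in the controls, and Plk1 at 1.56, 7.73, 5.44 and 6.48 CPM against 2.56, 2.89, 1.77 and 3.79 CPM. In all 5, libraries 10, 13 and 16 lay above every control. Aurkb stood at 4.91, 18.6, 17.5 and 19.6 CPM against 4.21, 7.14, 8.43 and 7.59 CPM in the controls, and Bub1b at 5.06, 20.99, 24.5 and 22.3 CPM against 5.11, 6.89, 6.41 and 11.7 CPM. Cdc20 stood at 4.24, 10.9, 13.7 and 16.2 CPM against 3.25, 2.52, 4.63 and 6.38 CPM in the controls, and Birc5 at 5.06, 10.97, 16.7 and 18.5 CPM against 4.26, 4.12, 8.72 and 7.64 CPM. Kif11 stood at 5.14, 20.9, 24.8 and 22.5 CPM against 6.66, 4.55, 8.18 and 10.1 CPM in the controls, and Anln at 6.92, 18.6, 22.1 and 19.6 CPM against 3.302, 5.66, 3.35 and 12.6 CPM. In these 6 as well, the 3 libraries lay above every control and library 6 did not. In edgeR 35 of 36 members were under an unadjusted p of 0.05. Without library 6, the knockout with the lowest sum, the count was 32 with a median of 1.48. The shares of all genes above belong to the fit with all libraries. Without any other knockout or without control 1 the count was 1, without control 2 it was 2 and without control 3 it was 3. DESeq2 called 13 with all libraries. Hdac2 stood at 26.4 CPM in library 6 and at 29.4, 31.2 and 32.2 CPM in the others, all below the controls (71.9 to 82.2 CPM), and Hdac1 at 12 CPM and at 14.7, 13.7 and 14.8 CPM. Border macrophage markers stood at 142 CPM in library 6 and at 269 to 358 CPM in the others, against 81.9 to 123 CPM in the controls, and mature neutrophil markers did not separate the groups (493 to 733 against 501 to 597 CPM). Their part was not tested. No member's mean reached that of the P0 controls of the model, the median ratio being 0.232.

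At 6 weeks no inducible member passed the test. None of 32 tested was called, where 0.0633% of all genes were called, 0.0492% as higher and 0.0141% as lower, the median was 0.463 against 0.00784, and 5 were under an unadjusted p of 0.05 in edgeR. Ccnb1, Cdc25c, Bub1 and Ube2c were too low to be tested. Mki67 stood at 5.45, 12.1, 3.36 and 2.77 CPM against 3.06, 0.514, 1.43 and 3.05 CPM in the controls, and Top2a at 3.22, 5.05, 1.19 and 2.63 CPM against 2.78, 3.71, 1.66 and 2.89 CPM. Cdk1 stood at 9.13, 5.64, 5.48 and 4.99 CPM against 8.33, 4.19, 1.72 and 6.47 CPM in the controls, and Ccnb1 at 0.591, 0.479, 0.085 and 0.506 CPM against 0, 0.404, 0.172 and 0.315 CPM. Plk1 stood at 0.723, 1.17, 0.552 and 0.911 CPM against 1.78, 1.03, 0.515 and 1.26 CPM in the controls, and Aurkb at 1.58, 2.45, 1.36 and 1.89 CPM against 0.997, 0.6247, 0.172 and 1.73 CPM. These overlapped throughout. Bub1b stood at 2.63, 4.31, 3.36 and 1.48 CPM against 1.71, 1.76, 1.55 and 2.58 CPM in the controls, and Cdc20 at 1.58, 3.35, 1.95 and 0.708 CPM against 0.712, 1.87, 0.401 and 1.52 CPM. Birc5 stood at 0.92, 0.532, 1.15 and 0.675 CPM against 0.712, 0.257, 0.115 and 1.104 CPM in the controls, and Cenpa at 5.26, 6.44, 7.05 and 6.104 CPM against 3.56, 5.51, 4.12 and 7.25 CPM. Kif11 stood at 1.51, 4.15, 1.104 and 0.135 CPM against 0.0712, 0.294, 0 and 0.683 CPM in the controls, and Anln at 0.329, 2.93, 1.61 and 1.08 CPM against 0.57, 0.808, 1.15 and 0.631 CPM. These overlapped as well, and most values correspond to few reads. Ccnb2 stood at 1.58, 3.03, 1.57 and 1.79 CPM against 0.854, 0.588, 0.744 and 1.31 CPM in the controls, the 1 of the 13 members printed by library whose groups did not overlap. Of the 32 members tested, every knockout lay above every control in CPM for 3 (Ccnb2, Cenpf and Kif4), as for 2.15% of all genes tested. Every knockout lay below every control for 1 member, as for 1.14% of all genes. The sum was 112, 160, 118 and 114.6 CPM against 115, 101.7, 89.9 and 114.7 CPM. Library 6 of the knockouts was the highest, and its mature neutrophil markers stood at 8837 CPM against 1090 to 1590 CPM in the other 3. Their part was not tested.

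Tests of the difference between effects bear on which of these contrasts differ. The constitutive effect was larger at 2 weeks than at P0 in 35 of 36 members, where 30.8% of all genes were called, 21.7% with a more positive and 9.07% with a more negative effect, with a median difference of 2.48 against 0.112. Ccnb2 (3.33 ± 0.23, adjusted p = 1.11e-07), Plk1 (3.14 ± 0.39, adjusted p = 2.77e-05) and Bub1b (3.12 ± 0.35, adjusted p = 9.83e-06) differed most. Incenp (1.67 ± 0.25, adjusted p = 0.000127) and Cdc25c (1.83 ± 0.41, adjusted p = 0.00304) were the smallest of those called. Espl1 did not pass (0.26 ± 0.23, adjusted p = 0.425). From 2 to 6 weeks the constitutive effect shrank in 12 of 36 members, where 9.92% of all genes had a more negative and 5.88% a more positive effect. Plk1 (-2.35 ± 0.55, adjusted p = 0.0106), Bub1b (-2.21 ± 0.51, adjusted p = 0.011) and Hmmr, a spindle-pole protein (-2.05 ± 0.60, adjusted p = 0.0341), led, and Top2a (-1.14 ± 0.30, adjusted p = 0.02) and Cenpa (-1.02 ± 0.26, adjusted p = 0.0148) differed least. That count fell to 1 without knockout 89 of 2 weeks, which leaves 1 library in that arm, assumed to vary as the other groups do.

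The inducible effect did not differ between E16 and P0 for any member by edgeR's test, where 0% of all genes differed either way, and 5 members were under an unadjusted p of 0.05. From P0 to 2 weeks it grew for 1 member, Kif23 (1.37 ± 0.37, adjusted p = 0.0442), where 4.38% of all genes were called, 2.67% upward and 1.71% downward. Without knockout 6 of 2 weeks 21 members were called. None was called without 2-week control 1 or 2, 2-week knockout 10, 13 or 16, any P0 control, or P0 knockout 48, 49 or 53. The 4.38% of all genes belongs to the fit with all libraries.

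Between the models, the constitutive effect minus the inducible effect was below 0 at P0 for 12 of 36 members, where 16.9% of all genes were below and 14% above. Ccnb2 (-1.18 ± 0.18, adjusted p = 0.000335), Cdk1 (-1.06 ± 0.19, adjusted p = 0.00124) and Kif2c (-0.95 ± 0.21, adjusted p = 0.0037) differed most, and Kif20a, a motor of cytokinesis (-0.72 ± 0.23, adjusted p = 0.0271), and Mki67 (-0.63 ± 0.20, adjusted p = 0.0261) least. Scaling to library totals gave 4, and the count was 5 without constitutive control 69 or knockout 73 and 6 without constitutive control 74 or knockout 68. At 2 weeks the difference was above 0 for 13 members, where 16.6% of all genes were above and 14.7% below. Ube2c (1.98 ± 0.51, adjusted p = 0.00746), Plk1 (1.86 ± 0.58, adjusted p = 0.0235) and Birc5 (1.75 ± 0.51, adjusted p = 0.0186) led, and Racgap1 (1.02 ± 0.36, adjusted p = 0.0431) and Incenp (0.96 ± 0.27, adjusted p = 0.0109) differed least. The 13 became 20 without inducible knockout 6 and 2 without constitutive knockout 89, when the 1 library left in that arm is assumed to vary as the other groups do. At 6 weeks Racgap1 (1.70 ± 0.40, adjusted p = 0.0144) and Cenpf (1.39 ± 0.31, adjusted p = 0.00982) differed among 35 members, where 4.95% of all genes were called, 2.54% above and 2.41% below, and 1 did without the constitutive knockout with the highest sum. Each of these tests takes the models' own controls, which themselves differed.

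Other genes of mitosis moved with the members. Of 52 further mitosis genes, 49 rose and none fell in the constitutive knockouts of 2 weeks, where 24.4% of all genes rose and 17.8% fell, with a median of 1.98. They included the condensin subunit Smc4 (2.19 ± 0.12, adjusted p = 2.73e-06), Cdca3, an adaptor for destruction of the kinase Wee1 (2.82 ± 0.19, adjusted p = 6.83e-06), the condensin subunit Ncapg (2.23 ± 0.15, adjusted p = 7.41e-06) and the spindle protein Ckap2l (2.17 ± 0.15, adjusted p = 7.88e-06). At 6 weeks 7 of 47 tested rose and 1 fell, where 6.76% of all genes rose and 5.24% fell. Sgo2a, which protects centromeric cohesin (3.07 ± 0.58, adjusted p = 0.00456), rose and Ncaph, a condensin subunit (-1.06 ± 0.25, adjusted p = 0.0168), fell. At P0 1 rose and 3 fell, where 21.4% of all genes rose and 20.2% fell. In the inducible knockouts 17 of 52 rose and none fell at P0, where 6.81% of all genes rose and 3.56% fell, among them Pttg1, the securin that holds separase in check (0.89 ± 0.17, adjusted p = 0.00748), and Melk, a kinase of mitotic cells (0.75 ± 0.14, adjusted p = 0.00819). At 2 weeks 6 rose and none fell, where 1.11% of all genes rose and 1.13% fell, among them Sgo2a (1.82 ± 0.38, adjusted p = 0.019), Cenpn, a centromere protein (1.30 ± 0.28, adjusted p = 0.0223), Cdca8, a passenger complex subunit (1.48 ± 0.33, adjusted p = 0.0371), and Ect2, which triggers the cleavage furrow (0.97 ± 0.24, adjusted p = 0.0416). None was called at E16 or at 6 weeks in that model.

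The anaphase-promoting complex itself, the enzyme that Cdc20 activates, was measured beside them. In the constitutive knockouts of 2 weeks 3 of its 15 core genes rose and none fell, with a median of 0.0582, a share near the 24.4% of all genes that rose. Those were Anapc5 (0.96 ± 0.12, adjusted p = 0.000256), Anapc15 (1.01 ± 0.19, adjusted p = 0.00258) and Anapc11 (0.68 ± 0.18, adjusted p = 0.0135). Among 13 transcription regulators of mitosis genes 5 rose there and none fell, against 24.4% and 17.8% of all genes. Tfdp1, a partner of the E2F factors (1.99 ± 0.18, adjusted p = 3.45e-05), Foxm1 (1.35 ± 0.23, adjusted p = 0.00125), Mybl2 (2.32 ± 0.46, adjusted p = 0.00313) and Rbl1, a pocket protein of the DREAM family (0.53 ± 0.12, adjusted p = 0.00497), were among them. In the inducible knockouts of P0 neither Foxm1 (-0.01 ± 0.25, adjusted p = 0.979) nor Mybl2 (0.59 ± 0.27, adjusted p = 0.185) passed the test. At 2 weeks in that model 1 regulator fell, Rbbp4, a histone-binding subunit shared by MuvB and deacetylase complexes (-0.49 ± 0.10, adjusted p = 0.0188), and none rose, against 1.13% and 1.11% of all genes.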

How the data were processed

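Libraries were made without strand marking from 1 ng of total RNA, per the labels' protocols. The submitters' processing notes name CASAVA 1.8.2, STAR 2.5.2b, featureCounts 1.5.1, limma 3.28.21 and GRCm38. The counts of reads per gene deposited by the authors were used as deposited. CPM deposited by the authors equalled count over library total (largest difference 4.9e-06). A deposited log2 table of limma values, which holds 24 of the 36 members, was only checked. Symbols were matched for 48058 of 48526 genes, and genes without one held 0.058% of the counts. Each comparison was fitted on its own groups with edgeR 4.0.16 (filterByExpr, TMM, robust quasi-likelihood, in R 4.3.3). The method was also run on counts simulated with the same spread setting for every gene, which real genes need not share. It recovered 50% of log2 changes of size 1 and 99% of size 2 in the constitutive design of 2 weeks. In the inducible design of 2 weeks it recovered 79.8% and 100%. Alternatives were DESeq2 1.42.0, its size factors, library totals, no filter, 1 fit over all groups, and leaving out each library. Pairs of replicate libraries differed beyond sampling noise (chi-square per gene 9.98 to 214 in 67 pairs). Members and lists were chosen with earlier results of these data known. Values by library are given for 13 members. Fold changes are given for those of the 13 that a role needs, the 3 largest and 2 smallest called changes and every member that departs from the majority when 10 or fewer do. From other lists up to 4 called genes with the smallest adjusted p are named; Foxm1 and Mybl2 at P0 and Incenp, Espl1, Cdc25c and Mad2l1 by library were added by hand.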

Additional observations from a re-analysis of the deposited data

Results flagged for a closer look

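The 13 members printed by library, Espl1 and the sum were examined, in each group of 4 libraries, for a library far from the rest. Of these 135 sets of values 12 had one. Chance alone gives about 1 in 20 among independent sets. These are not independent, since most members rise and fall together across libraries. Groups of 2 or 3 libraries, among them every constitutive knockout group, were not examined. Cdk1 stood at 38.8 CPM in control 83 of the constitutive model at 2 weeks against 29.6 to 31.0 CPM in the other 3, and at 9.13 CPM in knockout 4 of the inducible model at 6 weeks against 4.99 to 5.64 CPM. Ccnb1 stood at 2.75 CPM in inducible control 4 of 2 weeks against 1.82 to 1.97 CPM. Ccnb2 stood at 0.938 CPM in the first constitutive control of 6 weeks against 2.18 to 2.28 CPM, and at 3.03 CPM in inducible knockout 6 of 6 weeks against 1.57 to 1.79 CPM. In inducible knockout 6 of 2 weeks Ccnb2 stood at 4.76 CPM against 20.1 to 22.3 CPM, Aurkb at 4.91 CPM against 17.5 to 19.6 CPM and Cenpa at 14.1 CPM against 26.0 to 27.7 CPM. Anln stood at 28.8 CPM in control 4 of E16 against 41.8 to 43.1 CPM, and Espl1 at 38.3 CPM in inducible control 1 of 6 weeks against 30.0 to 30.7 CPM. The summed level was 2392 CPM in control 5 of E16 against 2159 to 2177.5 CPM, and 160 CPM in inducible knockout 6 of 6 weeks against 112 to 118 CPM.

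The knockout effect differed between the models, by a test of the difference in edgeR, for 12 members at P0, 13 at 2 weeks and 2 at 6 weeks. Of all genes tested, 30.9%, 31.2% and 4.95% differed at these ages, counting both directions. Within the constitutive model the effect differed between P0 and 2 weeks for 35 members and between 2 and 6 weeks for 12, where 30.8% and 15.8% of all genes did. Within the inducible model it differed between P0 and 2 weeks for 1 member, where 4.38% of all genes did.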

How the results depend on the processing

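No paired analysis was possible because the numbers in the labels name different libraries in each group and the groups compared share fewer than 2 of them. At P0 in the constitutive model library totals gave 7 members called, with the direction turned, and 1 fit over all groups gave 0. That single fit gave 1 for the inducible model at P0 and 11 at 2 weeks, where DESeq2 gave 13 and no filter 23. For inducible controls from E16 to P0 DESeq2 gave 4. For the difference between models at P0 DESeq2 gave 7, DESeq2's size factors 7, totals 4 and the single fit 0, and at 2 weeks no filter gave 7. For the inducible effect from P0 to 2 weeks DESeq2 gave 3, no filter 0 and the single fit 0. Between control cohorts, a comparison added with its alternatives after seeing the data, DESeq2 gave 28, totals 4 and the single fit 2 at P0, and the single fit gave 10 at 2 weeks. The causes were not tested. With TMM sizes the summed CPM were 143.7 in constitutive controls of 6 weeks, 3191 in constitutive knockouts of 2 weeks, 1904 in those of P0 and 2262 in E16 knockouts. Without Espl1, an alternative chosen after seeing the data, they were 92.51 and 73 in the constitutive and inducible controls of 6 weeks and 94.97 in the inducible knockouts of 6 weeks.

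With 1 library left out, the counts of members called ran as follows. The shares of all genes called in these fits are not given here. Without a constitutive knockout of 2 weeks that arm is 1 library, assumed to vary as the other groups do. Constitutive knockouts gave 1 to 9 at P0, the lowest, without knockout 73, being a rise, 35 to 35 at 2 weeks and 6 to 12 at 6 weeks. Inducible knockouts gave 0 to 2 at E16, 2 to 6 at P0, 1 to 32 at 2 weeks and 0 to 0 at 6 weeks. Constitutive controls gave 35 to 36 from P0 to 2 weeks and 35 to 35 after, and inducible controls 0 to 1 from E16 to P0, 35 to 35 from P0 to 2 weeks and 30 to 33 after. The difference between models gave 5 to 12 at P0, 2 to 20 at 2 weeks and 1 to 3 at 6 weeks. The constitutive effect gave 35 to 35 from P0 to 2 weeks and 1 to 15 after, the inducible effect 0 to 0 from E16 to P0 and 0 to 21 after. Control cohorts gave 0 to 22 at P0, 13 to 26 at 2 weeks and 0 to 0 at 6 weeks. Espl1 at 2 weeks in the constitutive model ran from -0.10 without knockout 89, through -0.015 without control 78, to 0.17. Its change in effect from P0 turned to -0.030 with library totals and ran from -0.043, without P0 knockout 73, to 0.39. Of 108 single log2 changes, 106 kept their call with DESeq2, 105 with its size factors, 96 with totals, 100 without the filter and 75 in the single fit, and 43 lost it without at least 1 library. At 6 weeks members under 1 CPM rest on few reads.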

Other observations

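Genes of entry into the cell cycle and of CDK1 control were followed beside the mitosis genes. In the constitutive knockouts of 2 weeks 14 of 18 genes of G1 and S phase entry rose and 2 fell, by edgeR's test, where 24.4% of all genes tested rose and 17.8% fell, with a median of 1.46. Ccnd2, a D-type cyclin of G1, rose by 6.55 ± 0.52 on the log2 scale (adjusted p = 3.04e-05), more than any mitosis gene, and E2f8 (2.70 ± 0.20, adjusted p = 1.3e-05), Ccne2 (1.99 ± 0.19, adjusted p = 4.46e-05) and E2f1 (1.87 ± 0.20, adjusted p = 8.42e-05) rose with it. At 6 weeks 5 of 18 rose and 1 fell, where 6.76% of all genes rose and 5.24% fell. Ccnd2 rose by 4.12 ± 0.47 (adjusted p = 0.000425), and Cdk6, a kinase that D-type cyclins activate, fell (-0.83 ± 0.12, adjusted p = 0.000771). Ccnd2 was also higher at P0 (1.44 ± 0.16, adjusted p = 6.75e-05), an age at which 3 of the 18 genes rose and 4 fell, shares near those of all genes (21.4% and 20.2%). In the inducible knockouts 3 rose and none fell at P0, where 6.81% of all genes rose and 3.56% fell. They were the cyclin E genes Ccne1 (0.98 ± 0.18, adjusted p = 0.0069) and Ccne2 (0.74 ± 0.19, adjusted p = 0.0317) and the replication licensing gene Cdc6 (0.98 ± 0.22, adjusted p = 0.0165).

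Of 16 genes that restrain or release CDK1 or take cells out of the cycle, 10 rose and 4 fell in the constitutive knockouts of 2 weeks, where 24.4% of all genes rose and 17.8% fell, with a median of 0.799. Those that rose included genes of opposed roles. Cdc25b, a phosphatase that activates CDK1, rose by 1.99 ± 0.21 (adjusted p = 8.12e-05), while Pkmyt1, a kinase that holds CDK1 inactive, rose by 1.71 ± 0.26 (adjusted p = 0.00071) and Cdkn1a, the p21 inhibitor of cyclin-dependent kinases, by 1.72 ± 0.17 (adjusted p = 5.89e-05). Cdkn1a also rose in the inducible knockouts of P0 (1.62 ± 0.24, adjusted p = 0.00287) and of 2 weeks (0.97 ± 0.20, adjusted p = 0.0211). It did not pass the test in the constitutive knockouts of P0 (0.41 ± 0.19, adjusted p = 0.111) or of 6 weeks (0.68 ± 0.28, adjusted p = 0.165).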
